A study of Homo sapiens with 13 samples.

Results

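Olfactory receptor genes form the largest family of G protein-coupled receptors in mammals, and they lie in clusters of short genes with intron-free coding sequences. A mature olfactory sensory neuron expresses a single receptor allele, and in other cells most of the family is known as transcriptionally silent and rich in closed chromatin. Class I receptors (the families OR51, OR52 and OR56) occupy a single block on the short arm of chromosome 11, close to the beta-globin genes, and class II receptors occupy the other clusters. The olfactory receptor genes of chromosome 11 were read here in the peak lists of MDA-MB-231 cells. They were taken by symbol: every protein-coding gene of chromosome 11 in GENCODE release 44 on hg19 named OR, a number, letters and a number. This rule gave 171 of 20163 protein-coding genes, 55 of class I and 116 of class II. No measured value entered the choice.

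The cells come from the human line MDA-MB-231, established from a triple-negative breast cancer of the basal b type, and were untreated and grown in DMEM with fetal calf serum. Chromatin immunoprecipitation and sequencing had been done for the histone marks H3K4me1 (antibody Ab8895), H3K27ac (Ab4729) and H3K4me3 (Ab8580), and for the acetyltransferases p300/CBP (Ab14984), RNA polymerase II (Pol II, sc-55492) and the architectural protein CTCF (C15410210). H3K4me1 lies at enhancers and promoter flanks, H3K27ac at active enhancers and promoters, and H3K4me3 at promoters. There were 2 replicate libraries per antibody, merged before peaks were called, and 1 library of pooled immunoprecipitations for p300/CBP. The files hold peak positions with no height, so neither depth nor replicate error can be given, and the 95% exact binomial (Clopper-Pearson) intervals given with the shares cover counting error only. All groups come from 1 line, and neither RNA nor the copy number of these loci was measured here. A mark carried by few cells and a mark that is absent cannot be told apart in such lists.

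The lists held from 13984 peaks (p300/CBP) to 88319 peaks (H3K4me1) over the genome. For p300/CBP, Pol II and CTCF they held more peaks than the paper reports, with the largest excess for p300/CBP. VIM, CD44, FOSL1 and EGFR, markers of mesenchymal-like breast cancer lines, each had H3K4me1, H3K27ac, H3K4me3 and Pol II at the start site. ESR1 and GATA3, which define luminal cells, had no peak, whereas the luminal keratins KRT8 and KRT18 had all of these 4. Of 5 markers of olfactory sensory neurons, CNGA2 had no peak, OMP had CTCF alone and CNGB1 had H3K4me1 alone, while GNAL and ADCY3 had H3K27ac and H3K4me3 but no Pol II.

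Most olfactory receptor genes of chromosome 11 carried none of the 6 signals at their annotated start sites. Of 171 genes, 159 had no peak of any list in the 3-kb window centred on the transcription start site (TSS), and 12 had a peak, or 7.02% (3.68% to 11.9%). Over all 20163 protein-coding genes, 71.4% of the windows had a peak of at least 1 list. H3K4me1 was the most frequent signal, at 11 receptor genes (6.43%, 3.25% to 11.2%) against 58.7% of all genes. H3K27ac was found at 1 receptor gene (0.585%, 0.0148% to 3.22%) against 60.8% of all genes. H3K4me3 was found at 2 (1.17%, 0.142% to 4.16%) against 62.0%. CTCF was found at 2 (1.17%, 0.142% to 4.16%) against 17.5%. Pol II was found at 0 of 171, which allows a share of up to 2.13%, where 57.7% of all genes had it. For p300/CBP the count was also 0 of 171, but only 0.724% of all genes had a p300/CBP peak in the window, a share that lies inside the interval of the receptor genes, so no difference was detectable for this factor.

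The 1140 other protein-coding genes of the same chromosome had a peak of any list in 75.5% (72.9% to 78%) of windows, H3K27ac in 61.9% (59.0% to 64.8%) and Pol II in 60.4% (57.4% to 63.2%). These intervals lie far above those of the receptor genes, although genes are not replicates and neighbouring receptor genes share their surroundings. The 228 olfactory receptor genes of other chromosomes had a peak of any list at 13 windows (5.70%, 3.07% to 9.55%), H3K4me1 at 7, H3K27ac at 1, H3K4me3 at 3 and Pol II at 0. The intervals of the receptor genes on and off chromosome 11 overlapped for every list.

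**Figure D1:**
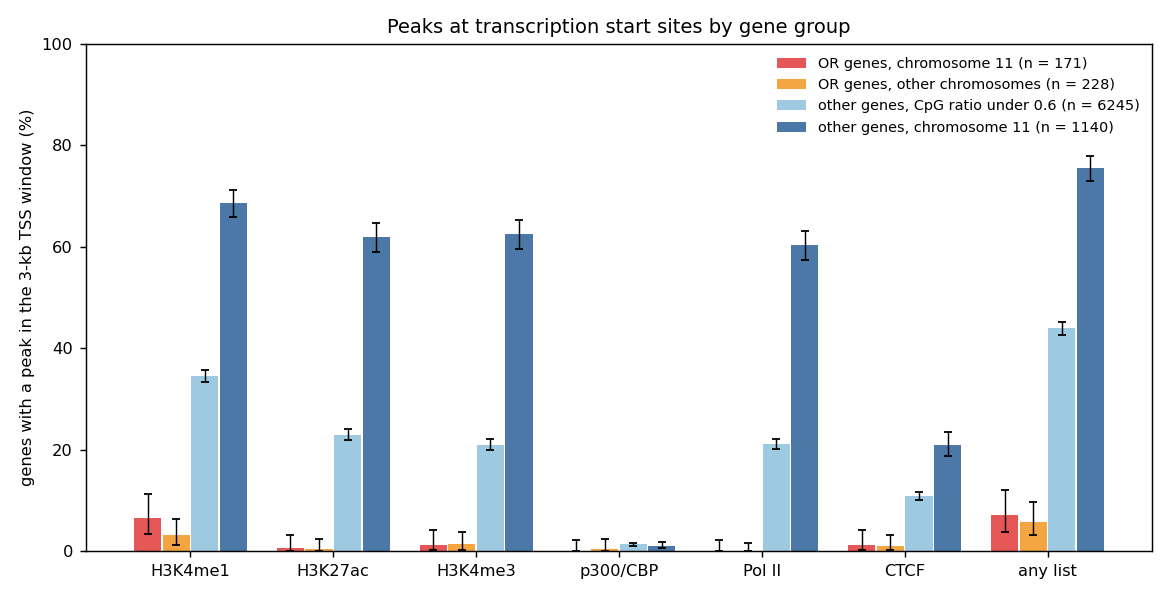
Share of genes with a peak in the 3-kb window of the TSS, in percent, for each of the 6 lists and for any list, with 95% exact binomial intervals of counting error as error bars, in olfactory receptor (OR) genes of chromosome 11, OR genes of other chromosomes, other protein-coding genes with a CpG ratio under 0.6 and other protein-coding genes of chromosome 11. Both OR groups stay at or below 7.02% for every list, whereas the other genes of chromosome 11 lie between 60.4% and 68.6% for H3K4me1, H3K27ac, H3K4me3 and Pol II.

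The sequence at the annotated starts of these receptor genes differs from that of most genes, so its CpG content was read beside the peaks. Of the 171 gene models, 100 have 1 exon. Where such a model holds the coding sequence alone, its start is the start codon, and transcription may start upstream of it. OR5D18, a model of 942 bp with 1 exon, begins with atg at its annotated start. Promoter here means the bases at the annotated start. The CpG ratio is the number of CpG dinucleotides over that expected from the C and G content, here in the 300 bases from 250 before to 50 after the TSS. Its median was 0.120 in the 171 receptor genes and 0.773 over all protein-coding genes, and the median number of CpGs was 1 against 23. Median GC content was 37.3% against 63.7%. A ratio of at least 0.6 was found at 3 receptor genes (1.75%) and at 66.9% of all genes. Promoters with a high ratio and 1 without a CpG are given here from the GRCh37 sequence, each 5′ to 3′ on the strand of the gene, with every CpG in capitals: OR52N2 (chr11:5829904-5830203, plus strand) and OR5D18 (chr11:55586856-55587155, plus strand) are among the 3 with a ratio of at least 0.6, and OR8J3 (chr11:55907628-55907927, minus strand) has none. OR5D18 was chosen for this comparison after its values were seen.
OR52N2: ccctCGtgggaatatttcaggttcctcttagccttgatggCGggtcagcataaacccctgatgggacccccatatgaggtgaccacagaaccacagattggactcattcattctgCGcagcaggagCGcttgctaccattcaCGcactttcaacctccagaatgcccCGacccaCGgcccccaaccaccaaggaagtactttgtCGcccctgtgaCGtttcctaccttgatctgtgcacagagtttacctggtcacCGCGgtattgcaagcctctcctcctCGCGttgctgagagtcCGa
OR5D18: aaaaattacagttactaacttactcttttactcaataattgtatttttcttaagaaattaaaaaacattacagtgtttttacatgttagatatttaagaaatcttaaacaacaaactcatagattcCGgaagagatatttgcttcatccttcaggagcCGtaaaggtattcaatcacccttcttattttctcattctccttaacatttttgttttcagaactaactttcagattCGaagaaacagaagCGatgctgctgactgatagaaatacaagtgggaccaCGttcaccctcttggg
OR8J3: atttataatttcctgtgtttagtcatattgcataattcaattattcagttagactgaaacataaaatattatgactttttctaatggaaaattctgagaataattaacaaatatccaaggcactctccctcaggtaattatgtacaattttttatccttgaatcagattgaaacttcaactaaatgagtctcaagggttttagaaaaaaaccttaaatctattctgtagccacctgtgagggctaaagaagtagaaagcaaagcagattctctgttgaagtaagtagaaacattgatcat

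OR52N2 holds 14 CpGs in these 300 bases (ratio 0.633), OR5D18 5 (0.653) and OR8J3 0. Of the 3 genes with a ratio of at least 0.6, OR52N2 was the one with a peak in the window. OR5D18 lay 105 kb from the nearest H3K4me1 peak and 1458 kb from the nearest H3K27ac peak.

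Low CpG content is shared by many genes that are no olfactory receptors, and 6245 of these had a ratio under 0.6. They had a peak of any list in 43.9% (42.6% to 45.1%) of windows, with H3K4me1 in 34.5% (33.3% to 35.7%), H3K27ac in 23% (21.9% to 24%), Pol II in 21.0% (20% to 22.1%) and CTCF in 10.8% (10.0% to 11.6%). Of the 168 receptor genes of chromosome 11 in the same class, 11 had a peak of any list (6.55%, 3.31% to 11.4%), 10 had H3K4me1, 1 had CTCF and 0 had H3K27ac or Pol II. Within this class the shares of the receptor genes lay below those of other genes, with intervals that did not overlap for any list other than p300/CBP. The class is broad, and CpG content was not matched inside it. Ratios under 0.1 made up 40.9% of the 171 receptor genes and 5.26% of the other genes of chromosome 11.

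**Figure D2:**
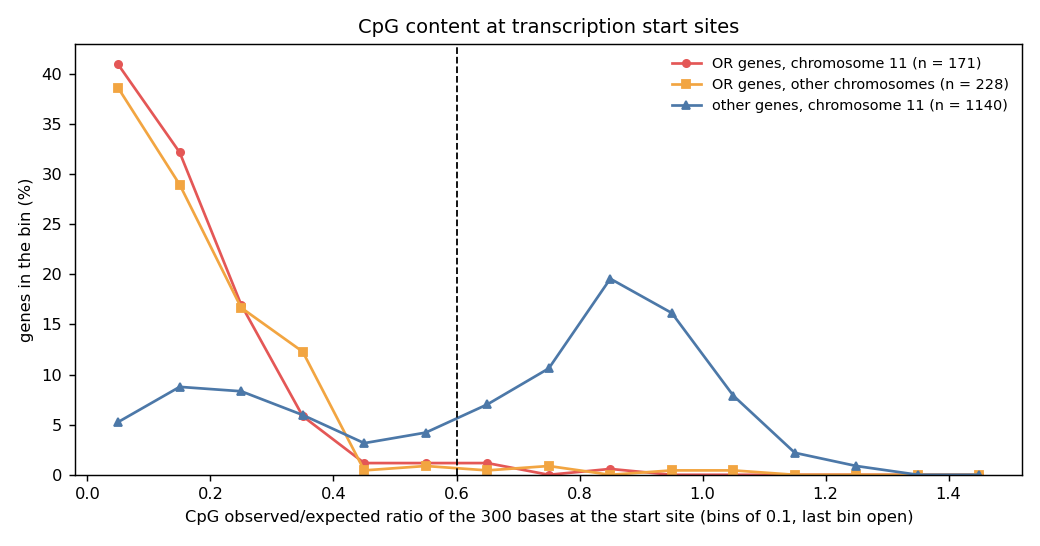
Distribution of the CpG observed/expected ratio of the 300 bases at the TSS, as the percentage of genes in bins of 0.1, in OR genes of chromosome 11, OR genes of other chromosomes and other protein-coding genes of chromosome 11, with the class limit of 0.6 as a dashed line. Both OR groups crowd at the lowest ratios (40.9% of the OR genes of chromosome 11 lie under 0.1), whereas the other genes have a second peak between 0.8 and 0.9.

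The same 300 bases were searched on both strands for TATAAA, for CCCNNGGG (the core of the site of EBF factors, also named O/E) and for TAATNA (a homeodomain core such as that of LHX2), words linked to receptor promoters in olfactory neurons. TATAAA was found in 33.3% of the 171 promoters and in 9.80% of all promoters. TAATNA was found in 68.4% against 16.5%, and CCCNNGGG in 7.60% against 21.8%. The AT-rich words were thus more frequent and the GC-rich word less frequent in the receptor promoters, which also had the lower GC content given above. A match is a description of the letters and no site of binding. OR56B1 (chr11:5757428-5757727, plus strand) and OR51F2 (chr11:4842301-4842600, plus strand) are shown because both carry H3K4me1 and both hold TATAAA and TAATNA, in capitals on whichever strand they read, with overlapping matches run together.
OR56B1: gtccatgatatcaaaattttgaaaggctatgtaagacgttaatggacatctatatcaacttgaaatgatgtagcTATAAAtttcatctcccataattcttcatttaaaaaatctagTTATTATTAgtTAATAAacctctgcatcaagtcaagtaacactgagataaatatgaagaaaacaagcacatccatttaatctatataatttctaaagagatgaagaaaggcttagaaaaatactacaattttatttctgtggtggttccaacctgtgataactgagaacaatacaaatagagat
OR51F2: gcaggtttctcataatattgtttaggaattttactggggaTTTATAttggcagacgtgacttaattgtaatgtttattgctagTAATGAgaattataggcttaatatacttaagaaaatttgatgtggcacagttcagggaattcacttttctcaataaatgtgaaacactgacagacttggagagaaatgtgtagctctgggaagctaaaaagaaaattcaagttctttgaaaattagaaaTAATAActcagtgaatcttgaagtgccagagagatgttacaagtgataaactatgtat

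The 12 marked receptor genes fell into few patterns. H3K4me1 alone was found at 9 of them (OR52K1, OR51F2, OR52H1, OR56B1, OR4C5, OR5M1, OR9G1, OR10W1 and OR8A1). Among the 14401 marked windows of all protein-coding genes, H3K4me1 alone made up 6% (5.62% to 6.40%), against 75% (42.8% to 94.5%) in the receptor genes. H3K4me1 also had the most peaks in the receptor clusters described below (95), of which 11 touched a receptor window. The share of windows touched by position alone was not computed, so these peaks cannot be read as features of the genes. Of the 13 marked receptor genes on other chromosomes, 7 had H3K4me1. The combination of H3K4me1, H3K27ac and H3K4me3 made up 70.6% (69.9% to 71.4%) of all marked windows and 1 of the 12 receptor windows. OR51D1 had H3K4me1 with CTCF, OR8J3 had H3K4me3 alone, and OR52N2 had H3K4me1, H3K27ac, H3K4me3 and CTCF.

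OR52N2, a class I receptor gene with its TSS at chr11:5830154 on the plus strand, was the receptor gene with the most lists. Its H3K4me1 peak (chr11:5829551-5830701) was 1150 bp wide and ran from 603 bp before to 546 bp after the TSS. The H3K27ac peak (chr11:5830001-5830301) was 300 bp wide, against a median of 1300 bp in its list, and lay over the TSS. The H3K4me3 peak (chr11:5829801-5830651) was 850 bp wide against a median of 1150 bp. The CTCF peak (chr11:5829651-5830101) was 450 bp wide against a median of 300 bp, ended 54 bp before the TSS, and covered most of the printed promoter. The nearest Pol II peak lay 124 kb and the nearest p300/CBP peak 188 kb away. The long gene model of TRIM5 runs across OR52N2 on the opposite strand, while the canonical start of TRIM5 lies outside this window, so the peaks cannot be assigned to a transcript from these lists.

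OR51D1, also class I (TSS chr11:4658707, plus strand), had a CTCF peak from 506 to 257 bp before its TSS (chr11:4658201-4658451) that overlapped an H3K4me1 peak of 700 bp (1006 to 307 bp before the TSS). CTCF sites hold a core that can be searched as the words AGATGGC, or else AGAGGGC, or else AGGTGGC, or else AGGGGGC, on either strand. The 250 bases of the OR51D1 peak are shown with this core in capitals, beside the 100-base CTCF peak at chr11:56163651-56163751, one of the narrowest in the receptor clusters, whose core reads on the minus strand. Both are printed on the plus strand.
OR51D1 CTCF peak: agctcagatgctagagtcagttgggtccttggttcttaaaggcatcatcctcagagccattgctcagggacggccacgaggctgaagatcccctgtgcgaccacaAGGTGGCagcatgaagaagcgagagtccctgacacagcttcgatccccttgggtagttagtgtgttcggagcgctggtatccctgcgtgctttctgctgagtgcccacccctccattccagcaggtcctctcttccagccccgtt
CTCF peak of 100 bases: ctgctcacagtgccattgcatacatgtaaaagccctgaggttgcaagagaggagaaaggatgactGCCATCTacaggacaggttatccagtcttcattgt

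OR8J3 (TSS chr11:55907677, minus strand), a class II gene, had an H3K4me3 peak of 750 bp that began 1227 bp after its TSS, of which 274 bp lay in the window. The H3K4me1 peaks at the other marked genes were narrow. Over the 11 receptor genes with H3K4me1 the peak was 750 bp wide at the median (500 to 2300 bp), against 1200 bp in the whole list. The peak lay over the TSS in 2 of 11 (OR52N2 and OR8A1), ended before it in 5 and began after it in 4. In OR9G1 only 121 bp of the window were touched, in OR51F2 250 bp and in OR52H1 320 bp. The remaining peaks touched more of the window. OR52K1 had a peak of 2050 bp that ended 126 bp before its TSS. OR4C5 had one of 650 bp that began 17 bp after its TSS. OR10W1 had one of 700 bp from 1468 to 769 bp before its TSS. At OR5M1 the peak began 750 bp and at OR56B1 523 bp after the TSS, inside the gene body.

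**Figure D3:**
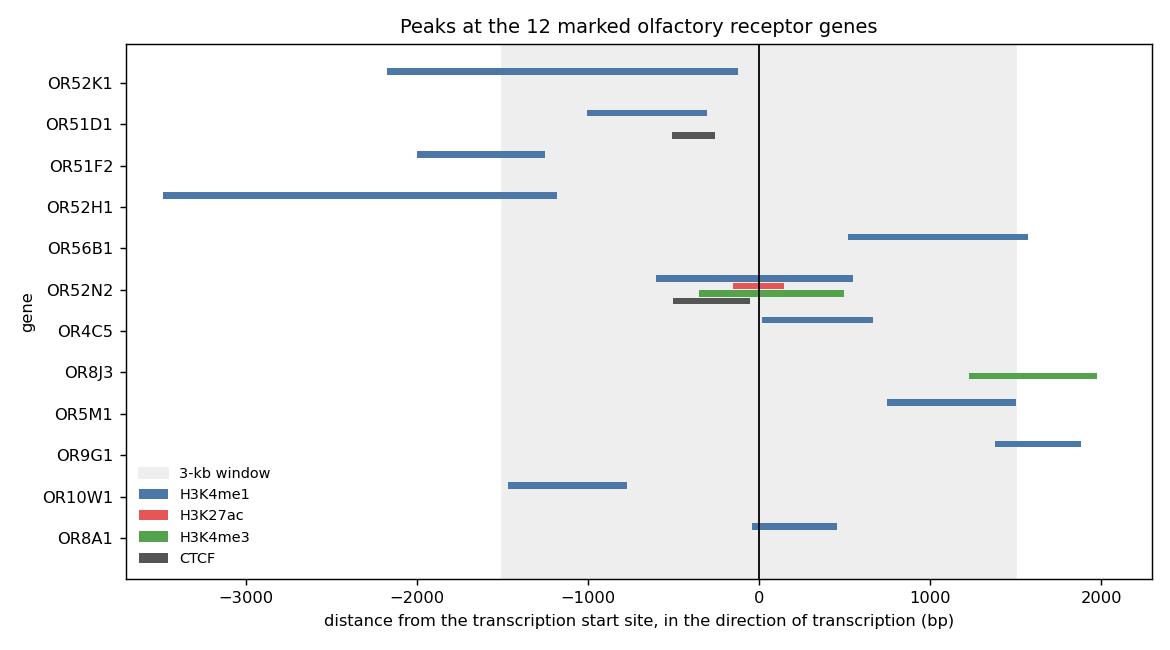
Position of each peak at the 12 marked OR genes by distance from the TSS in bp, in the direction of transcription, with the 3-kb window shaded and the list given by colour. OR52N2 is the gene with 4 lists around its TSS, and most other genes show 1 H3K4me1 peak to 1 side of it.

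OR51E1 and OR51E2, receptor genes also known for expression in prostate, had no peak in their windows. OR51E1 lay 2.01 kb from the nearest H3K4me1 peak and 35.3 kb from the nearest H3K27ac peak. OR51E2 lay 12.6 kb and 89.1 kb from them. By class, 6 of 55 class I genes and 6 of 116 class II genes were marked. By gene model, 5 of 100 genes with 1 annotated exon and 7 of 71 with more were marked. By receptor family, no family had more than 3 marked genes, the number found in OR52 (3 of 27). Over all 171 receptor genes 7.02% were marked, and over all protein-coding genes 71.4%. Differences between classes, gene models and families were not tested, and the counts are small.

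The 171 genes form 11 clusters when gene bodies less than 500 kb apart are joined. These spans cover 5.87 Mb, or 4.48% of the determined bases of chromosome 11, and are named here by their first and last receptor genes. The class I cluster from OR52B4 to OR52W1 (chr11:4388493-6221416) holds 55 receptor genes, all of class I, with TRIM and beta-globin genes between them. The cluster from OR4A16 to OR5AK2 (chr11:55110677-56757318) holds 48 of class II, and the cluster from OR6X1 to OR8A1 (chr11:123624288-124452838) holds 22. The other 8 clusters hold from 1 gene (OR2AT4) to 13 genes (OR9Q1 to OR5B21).

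Peaks of every list were sparser in the spans than over the rest of the chromosome, and the size of the difference varied between lists. H3K27ac had 28 peaks in the spans, or 4.77 per Mb against 16.7 per Mb elsewhere on chromosome 11, a ratio of 0.285. Pol II had 18 (3.07 against 11.3 per Mb, ratio 0.27) and H3K4me1 95 (16.2 against 40.7 per Mb, ratio 0.398). CTCF had 46 (7.83 against 16.8 per Mb, ratio 0.467), and p300/CBP had 3 (0.511 against 5.45 per Mb, ratio 0.0937). The p300/CBP ratio rests on few peaks and on an uneven list. Of the 686 p300/CBP peaks of chromosome 11, 291 lay within 5 Mb of its undetermined centromeric stretch, and they raise the density elsewhere. H3K4me3 was the least reduced in number, with 37 peaks (6.30 against 10.3 per Mb, ratio 0.615). By bases covered its ratio was 0.444, since the H3K4me3 peaks of the spans were narrower, with a median of 850 bp against 1200 bp. These ratios describe 1 merged list per antibody and have no error between replicates.

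The H3K27ac peaks of the spans seldom touched a receptor gene. Of the 28, 8 touched the windows of other protein-coding genes, 5 lay in the bodies of other genes, 12 lay between protein-coding genes, 1 lay in the body of a receptor gene, 1 in bodies of both kinds and 1 at the window of OR52N2. A receptor gene nevertheless had the nearest TSS for 14 of the 28 peaks, at a median of 24.4 kb (0 to 48.5 kb), and for 10 of the 12 between genes. Pol II showed a like pattern, with 7 of 18 peaks at windows of other genes, 10 between genes, 1 in the body of another gene and 0 at a receptor gene, and a receptor gene had the nearest TSS for 7 of 18, at 25.4 to 48.7 kb. Some of the peaks between protein-coding genes touched annotated long noncoding RNAs, such as LINC02739 in the cluster from OR5AN1 to OR10V1, a name chosen after the peaks were seen.

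The clusters differed among themselves. No peak of any list lay in the clusters from OR4C13 to OR4C12 and from OR4A5 to OR4C46, which hold 5 genes and lie on the short-arm side of the undetermined centromeric stretch. H3K27ac peaks were lacking in 6 of 11 clusters, which hold 69 receptor genes, and Pol II peaks in 8, which hold 104. The cluster from OR4A16 to OR5AK2 stood out for its length: all 1.65 Mb and all 48 start sites were free of H3K27ac, Pol II and p300/CBP peaks, but 15 H3K4me1, 10 H3K4me3 and 10 CTCF peaks were listed there. Of those 10 H3K4me3 peaks, 4 shared bases with H3K4me1. At the other end, the cluster from OR5AN1 to OR10V1, which also holds OSBP and PATL1, had 31.0 H3K27ac and 28.2 Pol II peaks per Mb, above the 16.7 and 11.3 of the rest of the chromosome, and 0 of its 8 receptor genes had a peak in the window. The cluster from OR5P2 to OR10A3 had 13.7 H3K27ac and 13.7 Pol II peaks per Mb (2 peaks each) and no marked receptor gene among 4. With 8 and 4 genes, these counts cannot be told from the 7.02% over all 171 receptor genes.

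**Figure D4:**
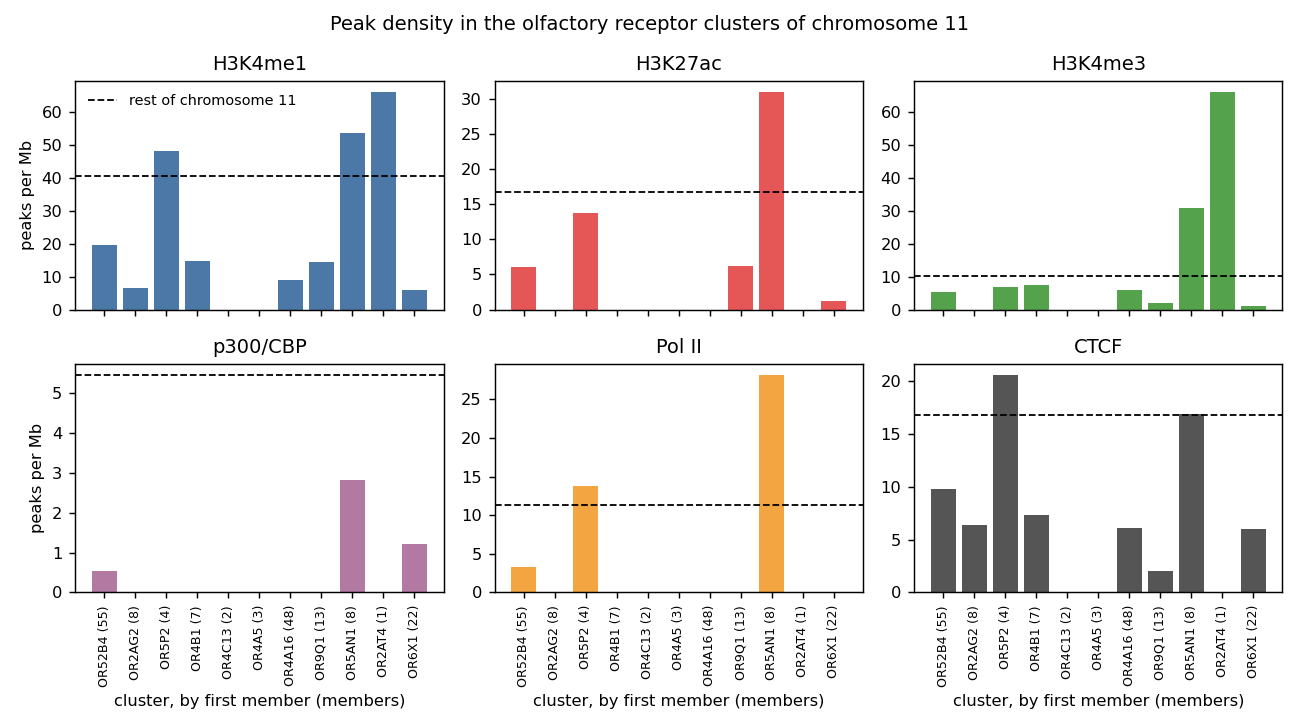
Peaks per Mb in each of the 11 OR clusters of chromosome 11, named by first member with the number of members in brackets, in 1 panel per list, with the density over the rest of the chromosome as a dashed line. The OR5AN1 cluster exceeds that line for H3K27ac and Pol II, the OR4A16 cluster has 0 for H3K27ac, p300/CBP and Pol II, and the tall bars of the OR2AT4 span stand for 1 peak each in 15.1 kb.

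Sharing between lists was also counted. Of the 37 H3K4me3 peaks, 18 shared at least 1 bp with H3K27ac (48.6%, 31.9% to 65.6%), against 80.4% (78.1% to 82.5%) of the 1284 other H3K4me3 peaks of chromosome 11. Of the 37, 13 lie in the 6 clusters without H3K27ac, where none could share. In the 5 clusters that hold H3K27ac, 18 of 24 (75%, 53.3% to 90.2%) shared. This split used H3K27ac itself, so the share in those 5 clusters is not on equal terms with the rest of the chromosome. Conversely, 17 of 18 Pol II peaks in the spans shared bases with H3K27ac (94.4%, 72.7% to 99.9%), against 60.1% (57.5% to 62.7%) elsewhere. For H3K4me1 the share with H3K27ac was 29.5% (20.6% to 39.7%) in the spans and 38.9% (37.6% to 40.3%) elsewhere, and the intervals overlapped.

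The nearest peak was far from most receptor genes. The median distance from the TSS to the nearest H3K27ac peak was 159.8 kb over the 171 genes (quartiles 56.6 and 681 kb), and 0 kb over the 1140 other genes of the chromosome. For Pol II it was 253 kb against 0 kb, for H3K4me3 88.3 kb against 0 kb, for H3K4me1 39.6 kb against 0.825 kb and for CTCF 45.6 kb against 10.2 kb. More than 100 kb separated 103 receptor genes (60.2%) from H3K27ac, against 7.98% of the other genes. Olfactory receptor genes of other chromosomes had medians of 131 kb for H3K27ac and 30 kb for CTCF.

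More than 1 Mb from any H3K27ac peak lay 31 receptor genes, 29 of them in the cluster from OR4A16 to OR5AK2 and 2 (OR4C13 and OR4C12) in their own. The 5 farthest were neighbours at the start of the former: OR4A16 at 1935 kb, OR4A15 at 1909.8 kb, OR4C15 at 1723 kb, OR4C16 at 1706 kb and OR4C11 at 1670 kb. At its other end OR5AK2 lay 289 kb away. The stretch without H3K27ac that holds this cluster (5.47 Mb, of which 3.1 Mb are undetermined) was the longest on chromosome 11 when undetermined bases, which can hold no peak, are counted. By determined bases it spans 2.37 Mb and was exceeded by stretches of 2.98 and 2.69 Mb, neither of which holds a receptor gene, and narrowly by the stretch with the 5 genes from OR4C13 to OR4C46 (also 2.37 Mb). At the near end, OR52N2 lay within its H3K27ac peak, OR52H1 1.93 kb, OR2D3 4.62 kb and OR10V1 5.52 kb from one, and all other receptor genes lay over 10 kb away.

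**Figure D5:**
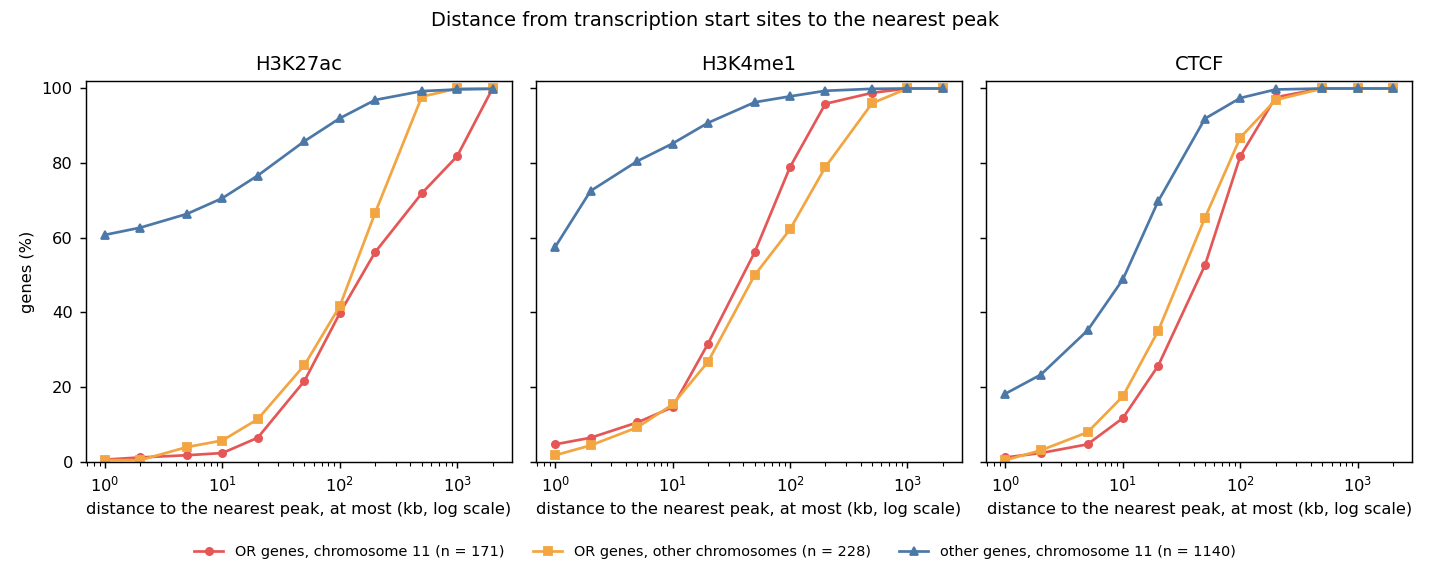
Cumulative percentage of genes whose nearest H3K27ac, H3K4me1 or CTCF peak lies within a given distance (kb, log axis) of the TSS, in OR genes of chromosome 11, OR genes of other chromosomes and other protein-coding genes of chromosome 11. For H3K27ac the 2 OR groups run together up to 100 kb and then part, with 81.9% of the OR genes of chromosome 11 and 100% of those elsewhere reached at 1000 kb.

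Some genes of other kinds in the same spans carried H3K27ac and Pol II. Of 24 such protein-coding genes, 10 had a peak of any list (41.7%, 22.1% to 63.4%, against 71.4% of all genes), and 9 had H3K27ac, H3K4me3 and Pol II (37.5%, 18.8% to 59.4%, against 60.8% of all genes for H3K27ac). The other 14 had no peak. TRIM genes, which encode ubiquitin ligases with roles in antiviral defence, made up 6 of these 9: TRIM21, TRIM68, TRIM6, TRIM6-TRIM34, TRIM34 and TRIM5 (TRIM6 and the readthrough TRIM6-TRIM34 share their H3K27ac, H3K4me3 and Pol II peaks). TRIM22 and TRIM51 had none. OSBP (oxysterol-binding protein), PATL1 (an mRNA decay factor) and STX3 (a membrane fusion protein, whose gene body reaches into the span but whose TSS lies 41.5 kb outside it) were the other 3, and VWA5A had H3K4me1 alone. The 5 beta-globin genes HBB, HBD, HBG1, HBG2 and HBE1 had no peak in their windows, and an H3K27ac peak of 450 bp lay 11 kb from HBE1, the nearest of them.

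The first protein-coding genes to either side of the spans are 19 in all, at distances from 3.69 kb (SLCO2B1) to several Mb around the undetermined stretch, and 11 of them were marked, 9 with H3K27ac and 8 with Pol II. Over all protein-coding genes the shares were 71.4% for any list, 60.8% for H3K27ac and 57.7% for Pol II, so these 19 genes were not marked more often. Distances here run from the edge of the span to the gene body. The marks are those in the TSS window, which can lie farther off. ZNF215, a zinc finger gene 4.41 kb beyond OR2D3, had H3K4me1, H3K27ac, H3K4me3 and Pol II, and so did ZNF202, 11.9 kb before OR6X1. NLRP10, with its gene body 15.8 kb beyond OR10A3, had the same set. LPXN, which encodes leupaxin, had them with CTCF at its TSS, and its gene body lies 18.8 kb beyond OR5B21. The first H3K27ac peak beyond OR5B21 lay 64.7 kb away. SSU72L3 and C11orf42 to either side of the class I cluster, OVCH2, MPEG1 and PANX3 had no peak, nor did FOLH1, TRIM48 and TRIM51G near the centromere, of which TRIM51G lay 486 kb beyond OR4A47 and FOLH1 744 kb before OR4C13.

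CTCF peaks were the most frequent in the spans after H3K4me1. Of the 46, 33 lay between protein-coding genes and 2 at windows of receptor genes. The core words given above were found in 26 of the 46 (56.5%, 41.1% to 71.1%), in 58.9% (56.7% to 61.0%) of the 2103 other CTCF peaks of chromosome 11, and in 11.8% (11.3% to 12.3%) of all 350-base tiles of the spans that touched no CTCF peak. In the cluster from OR4A16 to OR5AK2, 9 of 10 CTCF peaks held a core word, and in the class I cluster 8 of 18. The CTCF peak at OR52N2 held none. Fewer CTCF peaks of the spans shared bases with H3K4me1, 17.4% (7.82% to 31.4%), than elsewhere, 34.5% (32.4% to 36.6%). H3K4me1 itself covered 2.24% of the spans and 7.99% of the rest of the chromosome, and the sharing was not adjusted for this.

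Reads had to map to 1 place to be used, and receptor genes resemble each other, so the uniqueness of the sequence was measured. In the 3-kb windows of the 171 genes a median of 99.3% of the 50-base words occurred once in the genome, against 99.1% over all protein-coding genes. The lowest window had 71.0%, and 151 windows (88.3%) had at least 90%, against 89.7% of all genes. Over whole spans the share was from 76.2% (OR4A5 to OR4C46, 0.078 Mb from the undetermined stretch) to 96.3% (OR2AT4). The clusters without a peak of any list had 76.2% and 82.8% unique words, the lowest and the third lowest of the 11, and the part of this in their lack of peaks was not tested. The p300/CBP list was uneven on this chromosome: 291 of its 686 peaks (42.4%) lay within 5 Mb of the undetermined stretch, where 81 receptor genes also lie, and none of these genes had one in its window. Over all protein-coding genes only 0.724% had one, so no difference was detectable.

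Other genes of olfactory signalling were read in the same way. Of 24 genes on a list of transduction components, receptor chaperones and regulators, 14 (58.3%, 36.6% to 77.9%, an interval that holds the 71.4% of all genes) had a peak of any list, 10 H3K4me1, 8 H3K27ac, 9 H3K4me3, 7 Pol II and 0 p300/CBP. Those with H3K27ac, H3K4me3 and Pol II were ATF5, EBF2, GNB1, KDM1A, LDB1 and RIC8B, of which GNB1, KDM1A and LDB1 are known to act in many tissues. The regulators LHX2, EMX2 and EBF1, the receptor chaperones RTP1 and RTP2, the channels CNGA2, CNGA4 and ANO2, and PDE1C and SLC24A4 had none. Of other chemosensory receptor families, 1 of 24 TAS2R bitter taste receptor genes had a peak (CTCF alone, 4.17%, 0.105% to 21.1%), against 71.4% of all genes. The count was 0 of 6 TAAR genes (up to 45.9%) and 0 of 4 VN1R genes (up to 60.2%). Of 3 TAS1R genes, 2 (TAS1R1 and TAS1R3) had one (66.7%, 9.43% to 99.2%). The intervals of these 3 small families overlapped.

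Of the olfactory receptor pseudogenes of chromosome 11, 13 of 192 were marked at the annotated start, beside 12 of the 171 protein-coding receptor genes and 71.4% of all protein-coding genes. H3K4me1 was found at 11, H3K27ac at 1, H3K4me3 at 3, CTCF at 2 and Pol II at 0. The counts are not independent, since the H3K4me1 peak at OR52H1 also lies at a pseudogene. The 1 with H3K27ac was OR8B9P in the cluster from OR6X1 to OR8A1, which also had H3K4me1 and H3K4me3 and was named after its values were seen. A further 6 protein-coding genes of chromosome 11 have olfactory receptor symbols that end in P and were outside the rule, and none of them had a peak. So few genes cannot be told from the share of the 171 receptor genes.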

How the data were processed

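MDA-MB-231 chromatin had been sequenced after immunoprecipitation with 6 antibodies. The authors aligned the reads to hg19 (BWA-backtrack in the study's methods, Bowtie2 in the submitters' processing notes), binned them by 50 bp with PASHA after dropping reads with several matches, pooled both replicates, and took as peaks the runs of bins above a signal threshold. Threshold, shortest run and largest joined gap were 30, 250 bp and 1000 bp for H3K4me1, 50, 150 bp and 500 bp for H3K27ac, and 30, 150 bp and 500 bp for H3K4me3. They were 50, 100 bp and 800 bp for Pol II, 60, 50 bp and 50 bp for p300/CBP, and 50, 50 bp and 50 bp for CTCF. By their labels, the H3K4me1, H3K27ac, H3K4me3 and p300/CBP lists were scaled and background-subtracted. The Pol II label names scaling alone and the CTCF label neither step, so the lists were not processed alike. The deposited lists give peak positions in bp and no signal per peak, and input libraries were not analysed here. Depth is unknown, and weak regions below the thresholds are not listed.

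Positions were read with Python 3.11.15, NumPy 2.4.6, SciPy 1.17.1, pandas 2.3.3 and numba 0.67.0, and plotted with matplotlib 3.10.9. Starts and ends are printed as listed, and a peak stops 1 base short of its listed end. Genes came from GENCODE release 44 on GRCh37, and no peak passed a chromosome end. The TSS was that of the Ensembl canonical transcript, or the 5′-most basic TSS for 282 genes without one (3 receptor genes). A window ran 1500 bp to each side, and 1 shared bp counted. CpG ratios were missing for 19 genes masked on chromosome Y. Clusters joined gene bodies less than 500 kb apart. On simulated intervals, 0 of 600 tested overlaps and distances were wrong. No test was made, because each antibody has 1 merged list.

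The genes, lists and comparisons were chosen with earlier results of these data known. Genes were named by rule: every receptor gene with a peak in its window, the first and last of each cluster, OR51E1 and OR51E2, those nearest to and the 5 farthest from H3K27ac, other genes in the spans with H3K27ac or H3K4me3, and the first gene to either side. OR5D18, OR8B9P, VWA5A, TRIM22, TRIM51 and LINC02739 were named after their values were seen. The promoter of 1 further gene is not reported here. Alternatives changed the window, the overlap, the peak width, the TSS set, the gene region, the cluster gap and the joining of peaks.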

Additional observations from a re-analysis of the deposited data

How the results depend on the processing

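The numbers of marked receptor genes depend on the window and on the narrower peaks. With windows of 1 kb, 5 of 171 genes had a peak of any list, 5 H3K4me1 and 1 H3K4me3. With windows of 10 kb the counts were 28 for any list, 18 for H3K4me1, 3 for H3K27ac, 7 for H3K4me3, 1 for Pol II and 8 for CTCF. Over gene bodies they were 3 for H3K27ac, 5 for H3K4me3 and 4 for CTCF. When peaks narrower than their list's median width were dropped, in place of a stricter signal threshold, 3 genes had any list, 2 H3K4me1, 0 H3K27ac, 0 H3K4me3 and 1 CTCF, so that the H3K27ac and H3K4me3 peaks of OR52N2 are among the narrower ones. Over all genes, any list was found at 67.6% with 1-kb windows, 79.5% with 10-kb windows and 64.8% with the width limit. In the same order, H3K4me1 was found at 22.1%, 70.4% and 37.6%, and H3K27ac at 58.7%, 64.6% and 47.9%. H3K4me3 was found at 60.5%, 64.9% and 54.3%, and CTCF at 11.1%, 30.5% and 11.2%. Pol II was found at 60.7% with 10-kb windows. Shares over all genes were not computed for gene bodies. With that width limit the spans held 29 H3K4me1, 30 CTCF, 15 H3K27ac, 15 H3K4me3, 9 Pol II and 1 p300/CBP peaks. Joining genes up to 1 Mb apart gave 8 clusters of 8.16 Mb with 210 H3K4me1, 108 CTCF, 62 H3K27ac, 64 H3K4me3, 55 Pol II and 8 p300/CBP peaks. The other 37 of 66 alternative values stayed within 1.5 times the values reported. No alternative gave a receptor gene with p300/CBP in its window, and Pol II appeared at 1 gene with 10-kb windows. No paired analysis was possible because each list holds merged replicates, and leaving out 1 replicate could not be run either. Without values per peak, a region just under a threshold cannot be told from an empty one.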
